A study of Mus musculus with 20 samples.

Results

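Genotype-dependent expression was examined in common myeloid progenitors (CMPs), marrow cells that can form granulocytes, monocytes, red cells and platelets. The comparison used 6 of the 20 whole-transcript arrays, chosen by sample title: 3 arrays of CMPs from wild-type (WT) mice and 3 of CMPs from mice titled CreER-Raptor, whose genotype is given as CreER-Rptor-flox/flox (called Rptor CMPs here). All mice were female on a C57BL/6 background, and the CMPs were sorted from bone marrow and lysed without culture. CreER is a Cre recombinase fused to an estrogen receptor domain, which becomes active when its drug ligand is given. The labels used here give no age, no driver of the CreER transgene, no ligand treatment and no sort gate, and they do not say if CreER was present in the WT mice. Whether the replicates were separate mice is likewise not given in the sources used here, so each p-value measures the spread between arrays, which may be technical.

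Rptor encodes Raptor, the scaffold that brings substrates to the kinase complex mTORC1. This complex senses amino acids at the lysosome and growth factor signals at the cell surface. It promotes protein, lipid and nucleotide synthesis and restrains autophagy and the lysosomal transcription factors of the TFEB family. In the marrow, CMPs choose between an erythroid and megakaryocyte path, for which the factors Gata1 and Klf1 are characteristic, and a granulocyte and monocyte path, for which Spi1 (PU.1), Cebpe and Irf8 are characteristic.

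Values are log2 signals of 1 probe set per gene, so a difference of 1 is a doubling. A change is the Rptor mean minus the WT mean over 3 CMP arrays each, with its standard error (SE) from a limma fit of all 20 arrays that pools the spread within all 6 groups of the series, and a gene is called at a Benjamini-Hochberg adjusted p under 0.05 over 16638 genes. The 6 arrays had medians between 4.82 and 4.91. Arrays of the same genotype correlated at 0.990 or higher and arrays of different genotypes at 0.987 or lower. The first principal component held 62.6% of the variance, with the Rptor arrays at 17.91 to 29.37 and the WT arrays at -23.11 to -21.36. Rptor replicate 2 lay farthest out.

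The targeted gene was read first. Rptor gave a log2 signal of 8.72, 8.51 and 8.68 on WT replicates 1 to 3 and of 8.20, 8.37 and 8.45 on the Rptor replicates. Every Rptor array was below every WT array, but the difference of -0.29 ± 0.13 was not called (limma adjusted p = 0.163). It was called with array weights (-0.36, limma adjusted p = 0.0123). A two-sided exact permutation test gave p = 0.1, the smallest value that 3 against 3 arrays can give. The position of the probes relative to the floxed exons was not used here, so the level checks neither the label nor the extent of deletion. Mtor, the kinase, differed by -0.15 ± 0.10 (limma adjusted p = 0.434), and Rictor, Raptor's counterpart in the second complex of that kinase, by 0.31 ± 0.14 (limma adjusted p = 0.188).

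Over all tested genes 1905 were called, 1000 of them higher and 905 lower in Rptor CMPs. That is 11.4% of the genes tested, 6.01% called higher and 5.44% called lower, and these shares are the background for the gene groups that follow. The groups and their members were chosen with earlier results of these data known. A share above the background may therefore be favoured by the choice. Rptor and WT arrays were fully separated for 30.8% of genes, 15.9% with the Rptor arrays above and 14.9% with them below. Most changes were small, with the 10th percentile of all changes at -0.29, the median at -0.01 and the 90th percentile at 0.33. Among called genes the median size was 0.64, with 233 rises and 172 falls past 2-fold and 26 rises and 9 falls past 4-fold. The count of rises was 595 without Rptor replicate 2 and 660 without WT replicate 2. Falls numbered 614 to 858 when each array was left out in turn.

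**Figure D1:**
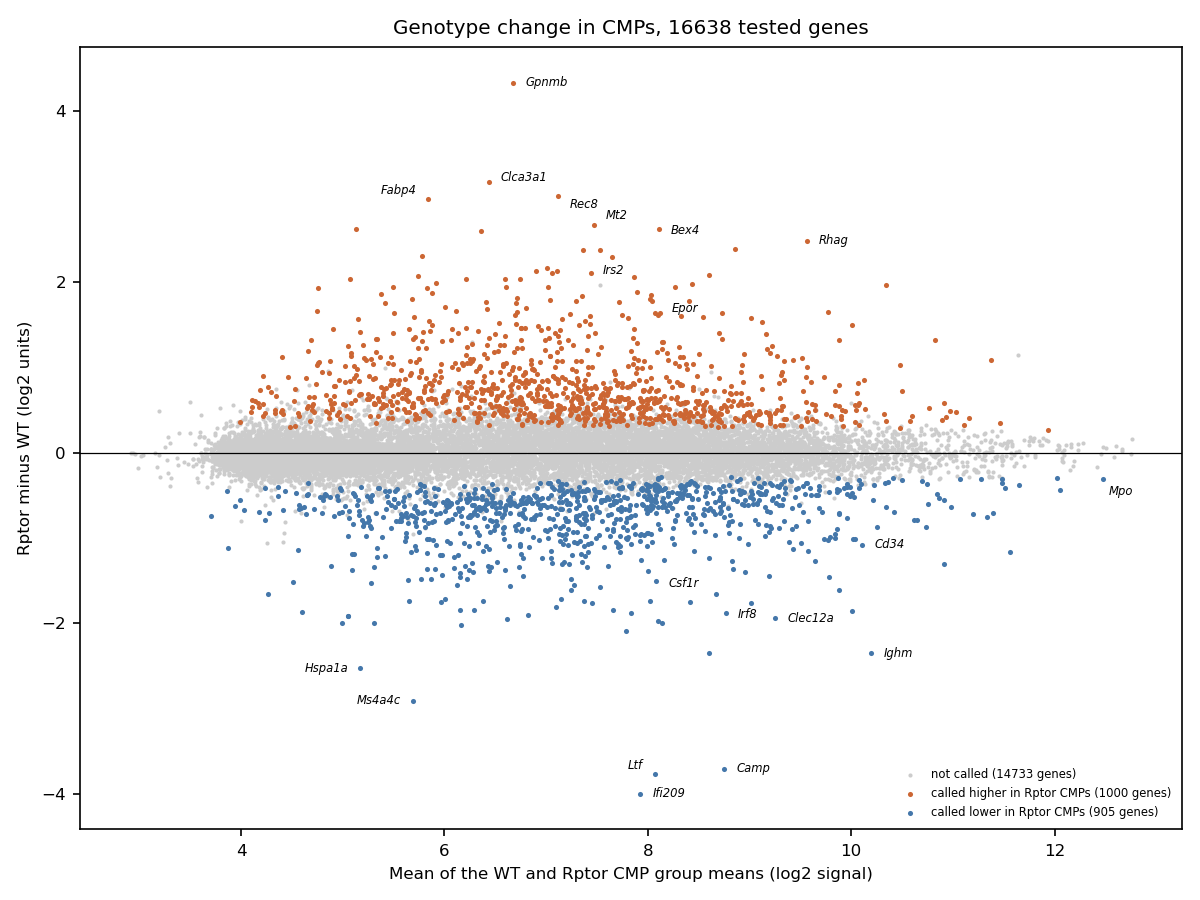
Each point is a tested gene. The horizontal axis is the mean of the WT and Rptor CMP group means (log2 signal) and the vertical axis is Rptor minus WT (log2 units). Orange points are the 1000 genes called higher, blue points the 905 called lower and grey points the genes not called. Gpnmb lies highest, at 4.33, and Ifi209 lowest, at -3.99.

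The transcripts of the surface proteins used in textbook CMP gates were not equal between the genotypes. Kit, the stem cell factor receptor, read 10.81, 10.67 and 10.70 on WT and 11.19, 11.15 and 11.09 on Rptor arrays, a rise of 0.42 ± 0.12. That call was lost without Rptor replicate 1 (limma adjusted p = 0.0733), Rptor replicate 2 (0.0652), WT replicate 2 (0.0787) or WT replicate 3 (0.0698). Cd34 read 10.76, 10.63 and 10.55 on WT and 9.73, 9.09 and 9.89 on Rptor arrays and fell by 1.08 ± 0.15 (limma adjusted p = 2.59e-05). Rptor replicate 2 had the lowest Cd34 signal. Fcgr3, an Fc receptor whose level separates CMPs from granulocyte-macrophage progenitors, fell by 0.64 ± 0.14. Il7r, which marks lymphoid progenitors, read 3.72 to 4.20 on WT and 5.23 to 5.98 on Rptor arrays, a rise of 1.66 ± 0.18. Pecam1 (CD31) fell by 1.13 ± 0.14. How far these differences reflect a different mix of cells inside the gate was not tested, and in bulk RNA fewer cells of a type and less RNA per cell cannot be told apart.

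Erythroid transcripts were higher in Rptor CMPs at each level of the programme. Of 21 tested transcription factors and receptors, limma called 11 higher and 0 lower (1 lower at an unadjusted p under 0.05), with a median change of 0.48. Klf1, the master regulator of red cell genes, read 7.41, 7.60 and 7.48 on WT and 8.68, 9.12 and 8.56 on Rptor arrays, so that the lowest Rptor array was above the highest WT array. It rose by 1.29 ± 0.25 (limma adjusted p = 0.000918). Epor, the erythropoietin receptor, read 7.26, 7.37 and 7.26 on WT and 8.84, 9.34 and 8.63 on Rptor arrays. Its rise of 1.63 ± 0.22 was led by Rptor replicate 2, as was that of Klf1. Gata1, whose product binds the GATA motif of erythroid genes, rose by 0.73 ± 0.15, and its cofactor gene Zfpm1 (FOG1) by 1.04 ± 0.17. Ldb1, an adaptor in GATA1 complexes, rose by 0.48 ± 0.09. Tfr2, a transferrin receptor, rose by 1.23 ± 0.16, and Sphk1, which makes sphingosine-1-phosphate, by 1.45 ± 0.17. Gfi1b, a repressor needed in erythroid and megakaryocyte precursors, rose by 1.21 ± 0.24.

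The Epor promoter is shown because this gene joins the erythroid receptors to GATA factors. The sequence is the 250 bases before the RefSeq gene start, from chr9:21963577-21963826 on the minus strand (GRCm38.p6), with capitals marking a match to AGATAA on either strand.
Epor: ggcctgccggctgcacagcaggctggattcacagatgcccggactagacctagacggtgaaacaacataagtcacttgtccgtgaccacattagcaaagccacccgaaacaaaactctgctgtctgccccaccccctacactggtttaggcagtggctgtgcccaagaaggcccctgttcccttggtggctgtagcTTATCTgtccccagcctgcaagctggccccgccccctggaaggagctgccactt
The match begins 54 bases before the start and reads as the reverse complement of the motif. Of 32851 RefSeq promoters of this length 9.99% held AGATAA on either strand. It was present in 11 of the 47 tested erythroid-list genes with a promoter sequence (23.4%) and in 8.21% of 12921 tested genes with one. Among the called members with a sequence, 7 of 31 held it, so it was not particular to the called members. A match is a description of the letters and not evidence of binding.

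Heme and iron genes were higher next. Of 21 tested members 13 were called higher and 1 lower, with a median change of 0.63, but the number higher was 5 without Rptor replicate 2. Fech, the ferrochelatase that completes heme, read 8.76, 8.78 and 8.86 on WT and 9.84, 10.09 and 9.69 on Rptor arrays. The groups did not overlap and Fech rose by 1.07 ± 0.13 (limma adjusted p = 5.77e-06). Cpox, an earlier enzyme of the pathway, read 8.67, 8.77 and 8.57 on WT and 9.72, 9.94 and 9.03 on Rptor arrays and rose by 0.89 ± 0.18, least on Rptor replicate 3. Slc11a2, the iron importer DMT1, rose by 0.77 ± 0.15, and Aco1, an iron-sensing regulator of RNA, by 0.72 ± 0.14. Alas1, the first heme enzyme of non-erythroid cells, was the member that fell by 0.74 ± 0.16.

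Genes of the red cell membrane, globins and carbonic anhydrases had the highest median of the 41 lists, 1.25, with 13 of 19 tested members called higher and 0 lower by limma (0 lower also at an unadjusted p under 0.05). Rhag, the Rh-associated glycoprotein, read 8.24, 8.55 and 8.18 on WT and 10.82, 11.30 and 10.28 on Rptor arrays, a rise of 2.48 ± 0.38. Ank1, which ties the membrane to the spectrin skeleton, read 6.94, 6.93 and 6.95 on WT and 8.56, 8.97 and 8.11 on Rptor arrays. Its rise was 1.61 ± 0.20, or 0.86 when its 2 probe sets were averaged. Sptb, erythroid beta-spectrin, rose by 1.26 ± 0.21 and Car2, a carbonic anhydrase, by 1.32 ± 0.21. Car1, another carbonic anhydrase, read 10.86 to 11.21 on WT and 11.99 to 12.35 on Rptor arrays but was not called (1.15 ± 0.40, limma adjusted p = 0.0704).

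The Rptor arrays came in the same order in all of these erythroid lists. Relative to the WT mean, the mean of the red cell membrane list was 1.39 higher on Rptor replicate 2, 1.10 higher on Rptor replicate 1 and 0.71 higher on Rptor replicate 3. The erythroid factor list gave 0.75, 0.55 and 0.39 and the heme list 0.76, 0.54 and 0.30 on those arrays, while the WT arrays lay between -0.04 and 0.07 in all 3 lists.

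Megakaryocyte and platelet genes, the sister path, moved both ways. Of 23 tested members 4 were called higher and 2 lower, with a median change of -0.13, or -0.014 without WT replicate 3. F2r, a thrombin receptor, read 7.38, 7.44 and 7.08 on WT and 7.92, 8.50 and 8.53 on Rptor arrays and rose by 1.02 ± 0.17. Gp5, a subunit of the platelet receptor for von Willebrand factor, rose by 1.03 ± 0.18, and Selp, the platelet adhesion protein P-selectin, by 1.17 ± 0.27. F5, coagulation factor V, fell by 0.92 ± 0.15. None of the 5 defining megakaryocyte markers was called by limma. Pf4 (-0.65 ± 0.22), Ppbp (-0.54 ± 0.36), Gp9 (-0.31 ± 0.17) and Vwf (-0.11 ± 0.15) were below 0 and Itga2b (0.37 ± 0.15) above it. The number lower was 1 without Rptor replicate 1 or 2 or WT replicate 1 or 3, and 4 without Rptor replicate 3.

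Granulocyte genes were lower. Of 23 tested primary granule and granulocyte progenitor genes limma called 14 lower and 0 higher (0 higher also at an unadjusted p under 0.05), with a median change of -0.44. Cebpe, the factor that drives granulocyte maturation, read 8.18, 8.15 and 8.67 on WT and 6.53, 6.93 and 6.27 on Rptor arrays, and the genotypes stood apart by more than 1 log2 unit. It fell by 1.76 ± 0.17. Fcnb, a ficolin of granulocyte precursors, fell by 1.84 ± 0.21 and Lyz2, lysozyme, fell by 0.71 ± 0.09. The serine protease genes of the primary granules changed less. Prtn3 (proteinase 3) read 11.69, 11.70 and 11.79 on WT and 11.25, 11.26 and 11.41 on Rptor arrays and fell by 0.42 ± 0.10. Mpo, myeloperoxidase, differed by -0.31 ± 0.09, a call (limma adjusted p = 0.0293) that was lost without Rptor replicate 1 (0.0874), Rptor replicate 2 (0.13), WT replicate 1 (0.104) or WT replicate 3 (0.0929). It was also lost with arrays centred on their median (0.0783). Ctsg, cathepsin G, was not called (-0.21 ± 0.09).

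The secondary granule and mature neutrophil list held 11 of 26 tested members lower and 1 higher (0 without any array but Rptor replicate 1), with a median change of -0.63. With CMP arrays fitted alone 17 were lower. Ltf, lactoferrin, read 9.69, 10.10 and 10.06 on WT and 6.22, 6.24 and 6.09 on Rptor arrays. Camp, the cathelicidin gene, read 10.39, 10.76 and 10.66 on WT and 6.74, 7.29 and 6.67 on Rptor arrays. Ltf fell by 3.77 ± 0.27 and Camp fell by 3.70 ± 0.22, and neither overlapped between genotypes. Ncf1, a subunit of the oxidase that makes superoxide, fell by 1.06 ± 0.13. S100a9, which pairs with S100a8 to form calprotectin, was not called (-0.59 ± 0.26) although S100a8 was (-0.79 ± 0.11).

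Of 8 tested eosinophil genes limma called 4 lower and 0 higher (0 higher also at an unadjusted p under 0.05), with a median change of -0.85. Epx, eosinophil peroxidase, read 6.84, 6.80 and 8.11 on WT and 5.36, 5.73 and 5.45 on Rptor arrays and fell by 1.74 ± 0.39. Prg2, the major basic protein, read 9.19, 9.33 and 10.04 on WT and 7.59, 8.56 and 8.33 on Rptor arrays and fell by 1.36 ± 0.24. WT replicate 3 was the highest array for both, and the groups did not overlap. Ccr3, the eotaxin receptor, was not called (0.41 ± 0.23).

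Of 17 tested mast cell and basophil genes 3 were called in each direction. Il4, a basophil cytokine, read 4.43, 4.75 and 4.45 on WT and 5.76, 6.71 and 6.38 on Rptor arrays and rose by 1.74 ± 0.19. Fcer1g, the signalling chain shared by Fc receptors, fell by 1.01 ± 0.11. None of the 5 defining markers was called by limma, among them the protease genes Cpa3 (0.58 ± 0.22) and Mcpt8 (-0.53 ± 0.19), which passed at an unadjusted p under 0.05. The number higher was 1 without Rptor replicate 1, WT replicate 2 or WT replicate 3, and the number lower was 1 without Rptor replicate 1, Rptor replicate 2 or WT replicate 3.

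**Figure D2:**
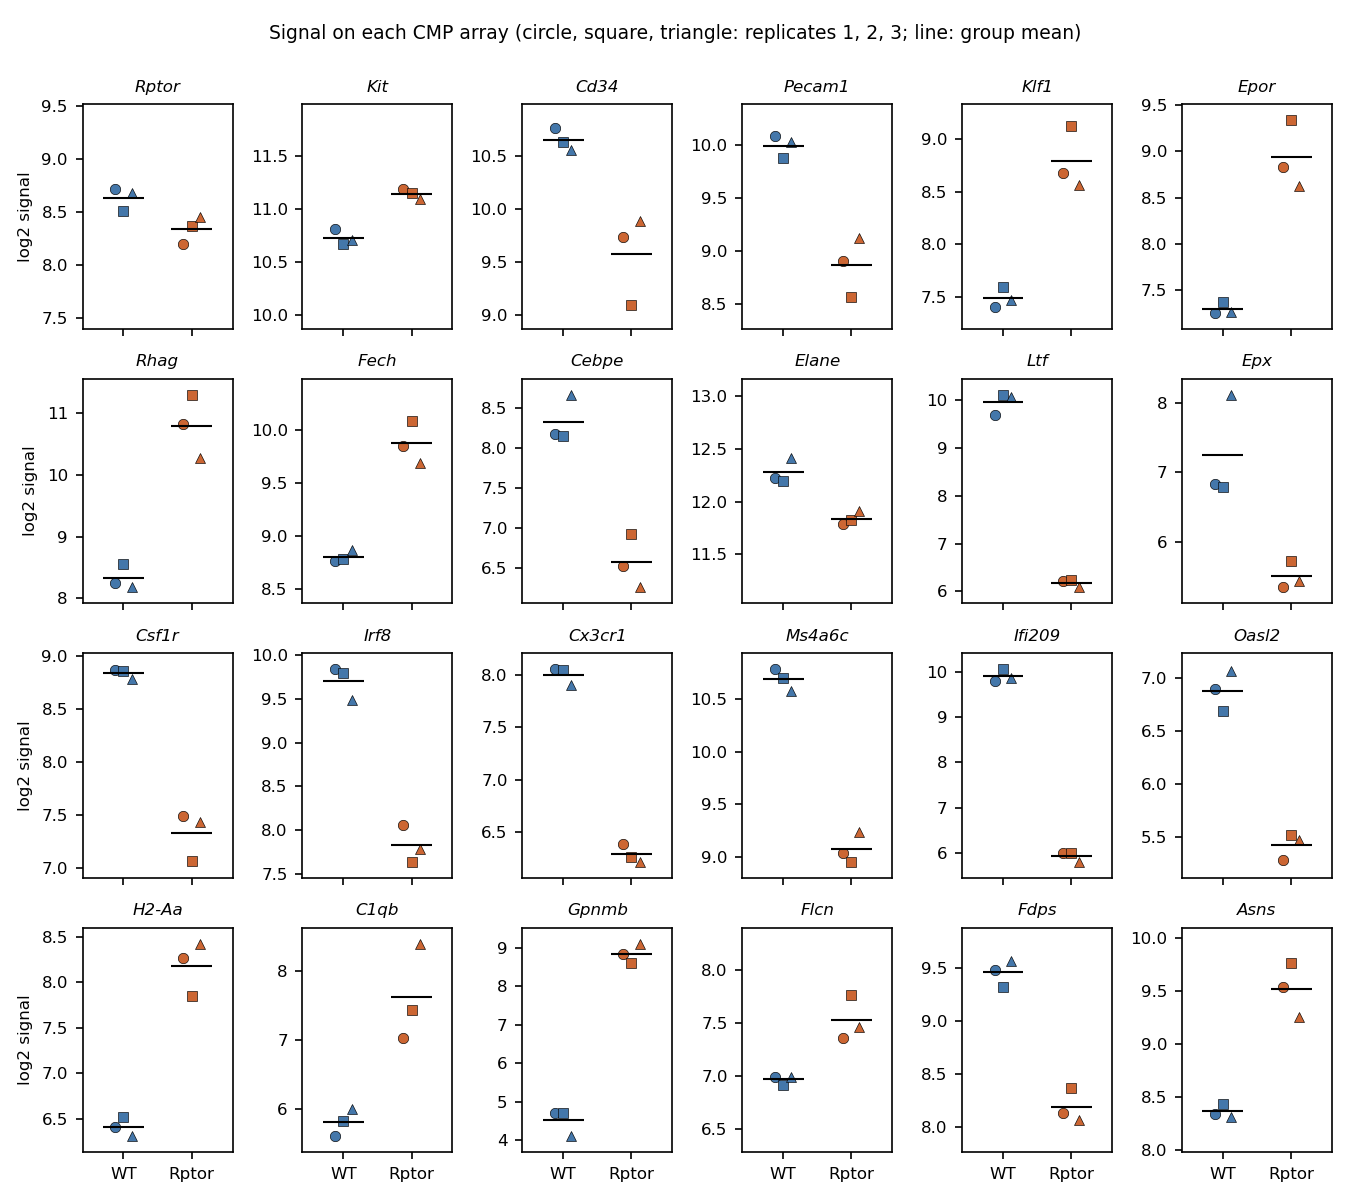
Each panel plots the log2 signal of 1 gene on the 3 WT (blue) and 3 Rptor (orange) CMP arrays. Circles, squares and triangles are replicates 1, 2 and 3 and the line is the group mean. Every panel spans at least 2 log2 units on its own axis, Rptor replicate 2 is highest for Klf1, Epor, Rhag and Fech, and Rptor replicate 3 is highest for C1qb and H2-Aa.

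Several monocyte factors and many monocyte surface genes were lower. Of 27 tested monocyte and myeloid transcription factors 6 were called lower and 2 higher (1 without WT replicate 3). Their median change was 0.01, but -0.092 without Rptor replicate 3 and -0.21 with the dim filter at the 50th percentile. Irf8, which directs monocyte and dendritic cell formation, read 9.83, 9.79 and 9.49 on WT and 8.06, 7.64 and 7.79 on Rptor arrays and fell by 1.88 ± 0.18. Klf4, a monocyte factor, read 5.98, 5.95 and 6.01 on WT and 5.35, 5.13 and 5.06 on Rptor arrays and fell by 0.80 ± 0.15. Spi1, which encodes PU.1, fell by 0.58 ± 0.12, and Mef2c, a myeloid and lymphoid factor, fell by 0.77 ± 0.16. Id2, an inhibitor of helix-loop-helix factors, rose by 0.89 ± 0.17. Cebpa, needed for granulocyte and monocyte commitment, was not called (-0.24 ± 0.13), nor was Gfi1, a granulocyte repressor (-0.20 ± 0.20).

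Of 39 tested monocyte surface and secreted genes 19 were called lower and 3 higher, with a median change of -0.42. Csf1r, the M-CSF receptor, read 8.87, 8.86 and 8.78 on WT and 7.49, 7.06 and 7.43 on Rptor arrays. Cx3cr1, the fractalkine receptor, read 8.06, 8.05 and 7.90 on WT and 6.38, 6.26 and 6.21 on Rptor arrays. Csf1r fell by 1.51 ± 0.11 and Cx3cr1 fell by 1.72 ± 0.17. Clec7a, the receptor for fungal glucans, fell by 1.99 ± 0.12, Fn1, fibronectin, fell by 1.95 ± 0.17, and Ms4a4c, a membrane protein of monocytes, fell by 2.90 ± 0.24. Ccr2, the chemokine receptor of inflammatory monocytes, was not called (-0.12 ± 0.16), nor was F13a1 (-0.31 ± 0.13). The number higher was 0 without WT replicate 1, WT replicate 2 or Rptor replicate 3.

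Cytokine receptors were divided. Of 33 tested 6 were higher and 7 lower, and the number lower was 4 without Rptor replicate 2. Il6st, the signalling chain shared by interleukin-6 family receptors, read 10.75, 10.56 and 10.33 on WT and 9.78, 9.19 and 9.64 on Rptor arrays and fell by 1.01 ± 0.15. Its partner gene Il6ra fell by 0.81 ± 0.13 and Il31ra fell by 1.26 ± 0.22. Il27ra rose by 0.85 ± 0.15, beside Epor. The receptors of the myeloid factors GM-CSF and G-CSF were not called, with Csf2rb at 0.13 ± 0.12 and Csf3r at -0.46 ± 0.20. Flt3, a receptor of multipotent and dendritic progenitors, was not called either (0.22 ± 0.18).

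Interferon-inducible genes were lower, and limma called none higher in either list. Of the Ifi200 family, DNA sensors encoded side by side, 6 members were tested and 4 were called lower, or 2 without Rptor replicate 1. Ifi209 read 9.81, 10.06 and 9.88 on WT and 5.99, 6.00 and 5.80 on Rptor arrays and fell by 3.99 ± 0.22. Mndal read 8.56, 8.88 and 8.62 on WT and 6.99, 7.39 and 7.54 on Rptor arrays and fell by 1.38 ± 0.18. Ifi205 (0.65 ± 0.23) and Ifi207 (0.16 ± 0.17) were not called, and Ifi205 was higher at an unadjusted p under 0.05. Its members are similar in sequence, and probe sets may share signal.

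Of 40 other interferon-stimulated genes tested, limma called 13 lower and 0 higher (1 higher at an unadjusted p under 0.05), with a median change of -0.32. Oas1g, an enzyme that senses double-stranded RNA, read 7.02, 7.05 and 7.57 on WT and 5.12, 5.39 and 5.60 on Rptor arrays and fell by 1.85 ± 0.24. Oasl2 of the same family fell by 1.46 ± 0.16. Trim30a fell by 1.07 ± 0.20 and Sp100, a nuclear body protein, fell by 0.61 ± 0.10. Ifit1, a binder of foreign RNA, read 5.35, 5.52 and 5.64 on WT and 4.80, 4.87 and 4.79 on Rptor arrays and fell by 0.68 ± 0.15.

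The promoters of Ifit1 and Oas1g are shown because they hold matches to the core of the interferon-stimulated response element, the site of the factor complex that interferon activates. Both are the 250 bases before the RefSeq gene start (GRCm38.p6), from chr19:34640639-34640888 on the plus strand for Ifit1 and chr5:120887614-120887863 on the minus strand for Oas1g. Capitals mark matches on either strand to GAAA, any 2 bases and GAAA.
Ifit1: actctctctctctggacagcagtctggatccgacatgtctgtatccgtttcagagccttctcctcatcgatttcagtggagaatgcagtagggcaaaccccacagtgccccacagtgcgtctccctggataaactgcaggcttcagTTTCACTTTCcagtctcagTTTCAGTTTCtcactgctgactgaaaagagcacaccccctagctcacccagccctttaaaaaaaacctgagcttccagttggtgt
Oas1g: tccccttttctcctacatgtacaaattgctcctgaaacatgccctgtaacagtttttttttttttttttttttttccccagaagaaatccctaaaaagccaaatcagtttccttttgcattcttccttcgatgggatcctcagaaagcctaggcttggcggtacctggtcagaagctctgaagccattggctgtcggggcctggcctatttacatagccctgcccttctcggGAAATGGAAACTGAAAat
Ifit1 has 2 separate matches that begin 104 and 85 bases before the start, and Oas1g has 2 overlapping matches that begin 18 and 12 bases before it. The motif was in 2.98% of the promoters used, in 18 of the 36 tested interferon-list genes with a sequence (50%) and in 3.14% of the 12921 tested genes with one. Among the called members with a sequence, 7 of 12 held it. No binding was measured.

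Antigen presentation genes were divided. Of 21 tested MHC class II and dendritic cell genes 4 were higher and 2 lower, with a median change of 0.01 that was -0.0044 without Rptor replicate 3. H2-Aa, a class II chain, read 6.41, 6.52 and 6.31 on WT and 8.27, 7.85 and 8.42 on Rptor arrays. H2-Eb1 read 6.67, 6.85 and 6.97 on WT and 8.53, 8.34 and 8.92 on Rptor arrays. Both rose by 1.77 log2 units, with an SE of 0.21 for H2-Aa and 0.22 for H2-Eb1. Of the genes of the peptide-loading chaperone, H2-DMa fell by 0.69 ± 0.11 and H2-DMb2 fell by 0.84 ± 0.19. Zbtb46, a factor of conventional dendritic cells, rose by 0.86 ± 0.13.

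Resident macrophage genes were higher, and most so on 1 array. Of 18 tested limma called 8 higher and 0 lower (1 lower at an unadjusted p under 0.05), with a median change of 0.50 (0.82 with the dim filter at the 50th percentile), and 5 were higher without WT replicate 1 or without Rptor replicate 3. C1qb, a complement subunit made by macrophages, read 5.60, 5.82 and 5.99 on WT and 7.03, 7.44 and 8.39 on Rptor arrays and rose by 1.81 ± 0.27. Mertk, a receptor for dying cells, read 4.97, 4.98 and 4.83 on WT and 5.87, 5.91 and 6.13 on Rptor arrays and rose by 1.04 ± 0.10. Mrc1, the mannose receptor, rose by 1.04 ± 0.19 and Apoe by 0.84 ± 0.14. C1qa rose by 0.77 ± 0.20, a call lost without Rptor replicate 3 (0.48, limma adjusted p = 0.0933). The list mean lay above the WT mean by 0.76 on Rptor replicate 3, 0.48 on Rptor replicate 2 and 0.34 on Rptor replicate 1. Of the 8 defining macrophage markers 7 were tested, with 3 called higher and 0 lower. The mean level of all 8, with the dim and untested Cd5l included, was 5.00 to 5.28 on WT and 5.52 to 6.10 on Rptor arrays. Adgre1, an adhesion receptor and 1 of these markers, was lower but not called (-0.34 ± 0.13). The markers C1qc (0.50 ± 0.17), Vcam1 (0.03 ± 0.24) and Timd4 (-0.03 ± 0.12) were not called either. The part of macrophage RNA in other results was not tested.

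Among stem and multipotent progenitor genes 4 of 27 tested were higher and 7 lower, with a median change of -0.18, or -0.081 without WT replicate 1. Sox4 read 9.33, 9.18 and 9.16 on WT and 8.07, 7.58 and 8.31 on Rptor arrays and fell by 1.24 ± 0.19. Cd27 fell by 0.94 ± 0.18, and Angpt1, a ligand of the Tie2 receptor, fell by 0.73 ± 0.14 (-0.43 when its probe sets were averaged). Mllt3, a chromatin reader of stem cells, rose by 0.85 ± 0.13. The number higher was 2 without Rptor replicate 1, WT replicate 2 or WT replicate 3. The mean of the B cell markers was 4.72 to 4.84 on WT and 4.51 to 4.74 on Rptor arrays. For T and NK cells it was 5.41 to 5.54 and 5.36 to 5.49, and for stroma and endothelium 5.48 to 5.50 and 5.16 to 5.36. The B cell mean included Ms4a1 and the stroma and endothelium mean included Lepr, both too dim to be tested. Single markers were far above these means. Nkg7, a granule protein of T and NK cells, read 10.85, 10.97 and 11.30 on WT and 10.12, 10.16 and 10.47 on Rptor arrays and fell by 0.79 ± 0.16. The T and NK markers Cd3e, Cd3d, Cd3g and Ncr1 read 3.67 to 5.17 on WT and 3.82 to 4.93 on Rptor arrays, and none was called. Cd79b and Pecam1 were called lower, as Nkg7 was. Klrb1c, a dim marker of T and NK cells, read 3.99 to 4.23 on WT and 4.32 to 4.73 on Rptor arrays. It was called higher (0.50 ± 0.16, limma adjusted p = 0.0463). That call was lost without Rptor replicate 1, Rptor replicate 3 or any WT array, and with no filter on dim genes. The part of such cells in other results was not tested.

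**Figure D3:**
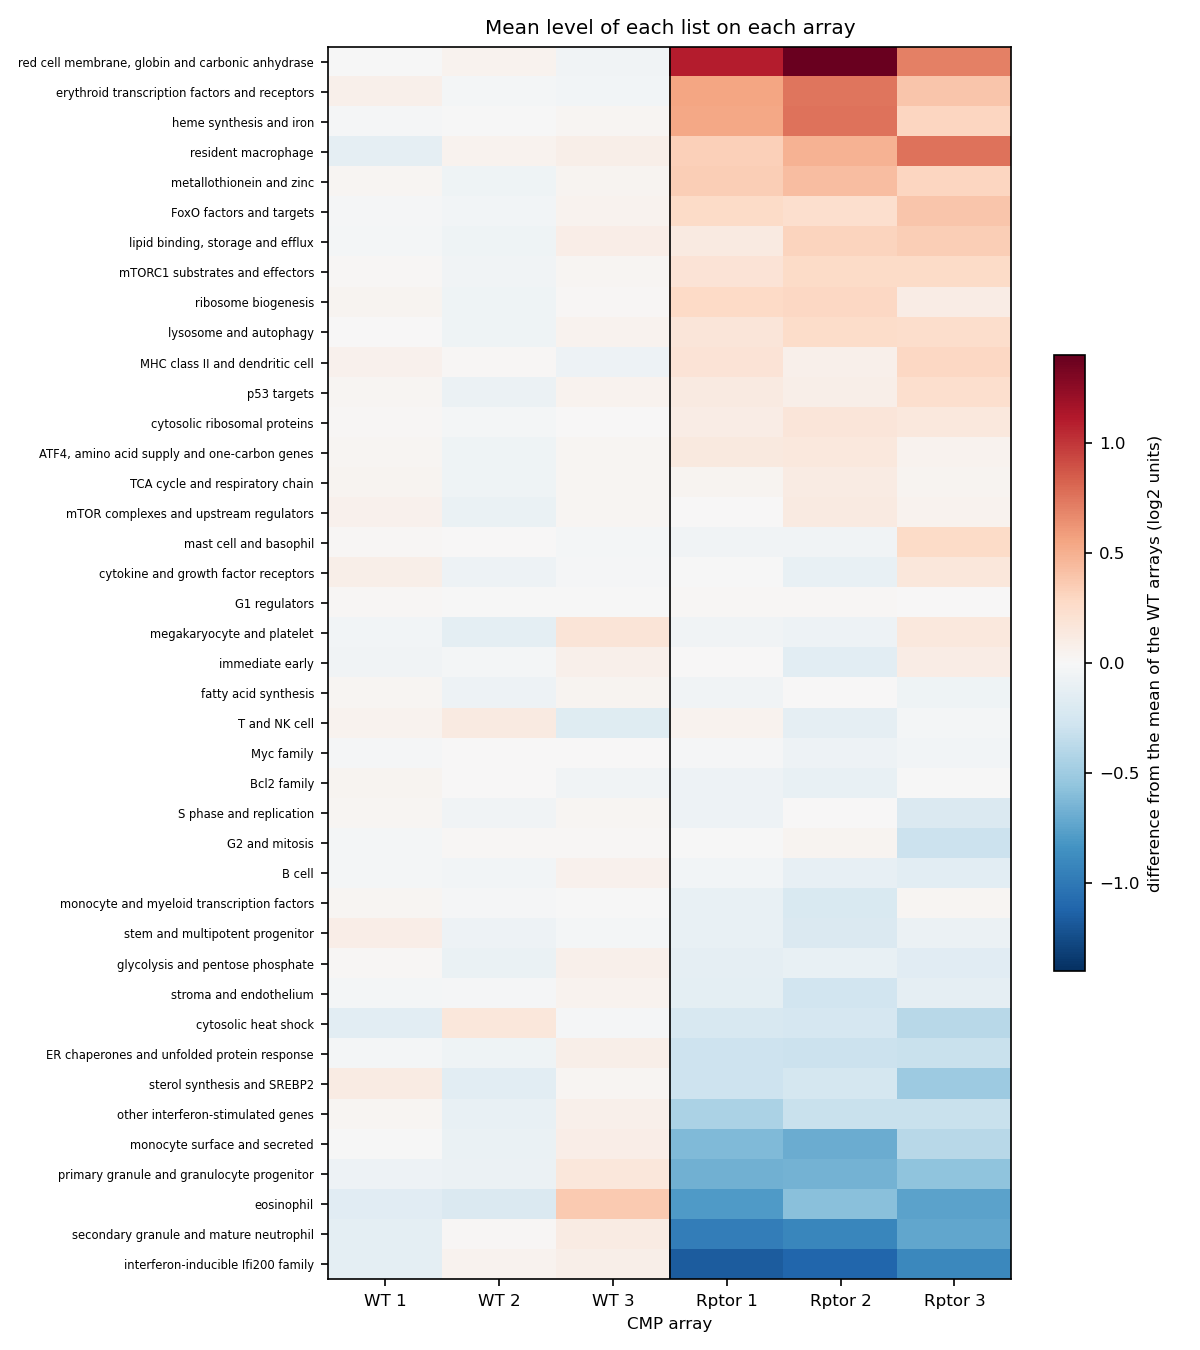
Rows are the 41 gene lists and columns the 6 CMP arrays. Colour is the mean of the tested members on an array minus the mean of the WT arrays (log2 units), red above and blue below it. The red cell membrane list is highest on Rptor replicate 2 (1.39), the resident macrophage list on Rptor replicate 3 (0.76), and the G2 and mitosis list is low on Rptor replicate 3 only (-0.31).

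The genes around mTORC1 itself changed at selected points. Of 36 tested complex subunits and upstream regulators 5 were higher and 3 lower. Their median change was 0.05, but 0.089 without WT replicate 1, -0.015 without Rptor replicate 2 and -0.0091 without WT replicate 2. The folliculin complex, which acts on the Rag GTPases at the lysosome, was higher in its 3 parts. Flcn read 7.00, 6.92 and 7.00 on WT and 7.36, 7.77 and 7.47 on Rptor arrays and rose by 0.56 ± 0.12. Fnip1 read 6.85, 7.00 and 7.20 on WT and 7.60, 7.62 and 7.39 on Rptor arrays and rose by 0.52 ± 0.12. Fnip2 read 6.50, 6.46 and 6.72 on WT and 7.86, 7.86 and 7.90 on Rptor arrays and rose by 1.31 ± 0.16. None of these arrays overlapped between the genotypes. Slc38a9, the lysosomal arginine sensor upstream of mTORC1, rose by 0.98 ± 0.14, and Ddit4 (REDD1), an inhibitor of the pathway, by 0.61 ± 0.14. Sesn1, a sestrin that restrains mTORC1, fell by 0.61 ± 0.12.

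Of 18 tested substrates and effectors 5 were higher and 1 lower. Their median change was 0.06, but 0.098 without Rptor replicate 1 and 0.033 without Rptor replicate 3. The number higher was 3 without Rptor replicate 2, Rptor replicate 3 or WT replicate 3. Irs2, an adaptor of the insulin receptor, read 6.33, 6.17 and 6.66 on WT and 8.48, 8.58 and 8.43 on Rptor arrays and rose by 2.11 ± 0.14 (limma adjusted p = 3e-09). Lpin1, a lipid phosphatase phosphorylated by mTORC1, read 6.79, 6.83 and 6.66 on WT and 7.75, 8.05 and 7.70 on Rptor arrays and rose by 1.08 ± 0.13. Eif4ebp1, the translation repressor that mTORC1 inactivates, rose by 0.52 ± 0.12. Of the TFEB family, Mitf fell by 0.59 ± 0.12 and Tfeb was not called (-0.02 ± 0.13). Tfe3, of the same family, read 6.99, 6.89 and 6.86 on WT and 7.29, 7.41 and 7.27 on Rptor arrays and rose by 0.41 ± 0.13 (limma adjusted p = 0.049). That call was lost without any 1 of the 6 arrays (0.0755 to 0.181), and also with no filter on dim genes (0.0602), trended and robust moderation (0.0544), cyclic loess (0.0554) or centring on the tested genes' median (0.0832). Array data read transcripts, so phosphorylation of these proteins was not measured.

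The lysosome and autophagy list had 6 of 35 tested members higher and 2 lower, with a median change of 0.07. Without WT replicate 2 the number higher was 3 and the median 0.042. Gpnmb, a lysosomal glycoprotein, read 4.72, 4.72 and 4.11 on WT and 8.84, 8.60 and 9.09 on Rptor arrays, a 20.1-fold difference (4.33 ± 0.18). Ctsl, the protease cathepsin L, rose by 1.22 ± 0.14, and Tpp1, a lysosomal peptidase, by 0.64 ± 0.10. Hexa, a subunit of hexosaminidase, read 10.68, 10.68 and 10.72 on WT and 9.84, 9.90 and 9.71 on Rptor arrays and fell by 0.88 ± 0.10. The number lower was 1 without any of the 6 arrays except Rptor replicate 2.

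Sterol synthesis genes were lower. Limma called 8 of 20 lower and 0 higher (0 higher also at an unadjusted p under 0.05), with a median change of -0.38. The number lower was 4 without WT replicate 1 or Rptor replicate 3, 5 without WT replicate 3 and 5 with arrays centred on their median. Fdps, which makes farnesyl diphosphate, read 9.48, 9.33 and 9.57 on WT and 8.13, 8.37 and 8.07 on Rptor arrays and fell by 1.27 ± 0.12. Srebf2, the factor that drives the pathway, read 8.91, 8.63 and 8.76 on WT and 8.35, 8.01 and 8.29 on Rptor arrays and fell by 0.55 ± 0.11. Msmo1, a sterol demethylation enzyme, fell by 0.64 ± 0.15. Of 13 tested fatty acid synthesis genes 1 was higher (0 without Rptor replicate 2) and 1 lower, and Fasn (-0.18 ± 0.12) and Acaca (-0.36 ± 0.15) were not called. Of 21 lipid binding, storage and efflux genes 6 were higher and 1 lower. Fabp4, a fatty acid carrier, read 3.96, 4.19 and 4.93 on WT and 6.67, 7.54 and 7.76 on Rptor arrays and rose by 2.96 ± 0.34. Plin2, the coat protein of lipid droplets, rose by 0.70 ± 0.12, and Abca9, a transporter, fell by 2.00 ± 0.19.

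Ribosome genes lay slightly above 0 as groups. Of 58 tested cytosolic ribosomal proteins limma called 4 higher and 0 lower (0 lower also at an unadjusted p under 0.05), with a median change of 0.13, and their share called, 6.90%, was below the 11.4% of all genes. The Rptor arrays lay fully above the WT arrays for 25 of the 58, against 15.9% of all genes. Rplp0, a stalk protein, rose by 0.53 ± 0.12. Of 41 tested ribosome biogenesis genes 4 were higher and 0 lower, with a median change of 0.23, and 18 were higher and 1 lower at an unadjusted p under 0.05. The number called higher was 1 without Rptor replicate 1, Rptor replicate 2, WT replicate 1, WT replicate 2 or WT replicate 3 and 8 without Rptor replicate 3. Nop14, a factor of the small subunit, read 9.34, 9.31 and 9.36 on WT and 9.81, 9.82 and 9.79 on Rptor arrays and rose by 0.47 ± 0.11. Ribosomal protein genes have many processed copies, and probe sets may share signal with them.

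Of 32 tested amino acid supply genes, many of them targets of ATF4, 5 were higher and 0 lower (1 lower at an unadjusted p under 0.05), with a median change of 0.07 (0.028 without Rptor replicate 2, 0.021 without WT replicate 2). The number was 3 without Rptor replicate 1, Rptor replicate 2, WT replicate 1 or WT replicate 2. Asns, asparagine synthetase, read 8.34, 8.44 and 8.31 on WT and 9.54, 9.77 and 9.26 on Rptor arrays and rose by 1.16 ± 0.13. Ddit3 (CHOP), a stress factor, rose by 0.75 ± 0.14, and Slc7a5, a leucine transporter, by 0.51 ± 0.11. The Asns promoter is shown for its C/EBP-ATF response element, the site ATF4 binds. It is the 250 bases before the RefSeq start, from chr6:7693210-7693459 on the minus strand (GRCm38.p6), with the match to TGATGNAA in capitals.
Asns: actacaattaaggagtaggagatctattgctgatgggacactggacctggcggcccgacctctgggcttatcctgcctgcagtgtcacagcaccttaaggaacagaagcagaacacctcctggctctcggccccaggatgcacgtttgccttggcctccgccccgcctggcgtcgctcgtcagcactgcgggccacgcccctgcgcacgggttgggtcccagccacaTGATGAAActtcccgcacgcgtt
The match begins 23 bases before the start. The motif, on either strand, was in 3.45% of the promoters used, in 5 of 27 tested list members with a sequence (18.5%) and in 2.79% of tested genes with one. Among list members called higher, 1 of the 4 with a sequence held it, Asns itself.

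Chaperones of the endoplasmic reticulum went the other way, with 10 of 23 tested members lower, 1 higher (Ddit3) and a median change of -0.29. Ern1, the stress sensor IRE1, read 9.94, 9.86 and 9.95 on WT and 8.89, 8.58 and 9.12 on Rptor arrays and fell by 1.05 ± 0.14. Sdf2l1 fell by 0.85 ± 0.14 and Creld2 fell by 0.61 ± 0.13. Edem1, which helps remove misfolded glycoproteins, fell by 0.61 ± 0.11. Calr, the chaperone calreticulin, read 11.00, 11.10 and 11.29 on WT and 10.65, 10.51 and 10.63 on Rptor arrays and fell by 0.53 ± 0.10.

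Sugar metabolism genes changed in both directions. Of 22 tested glycolysis and pentose phosphate genes 3 were higher and 4 lower, with a median change of -0.15, or -0.091 without WT replicate 3. Hk3, the hexokinase of granulocytes, read 8.93, 8.60 and 8.97 on WT and 6.72, 6.91 and 6.59 on Rptor arrays and fell by 2.09 ± 0.13. Hk2 fell by 0.61 ± 0.13, and Pfkm, the muscle-type phosphofructokinase, rose by 1.00 ± 0.21. The number higher was 1 without Rptor replicate 1, Rptor replicate 2 or WT replicate 2. Of 41 genes of the TCA cycle and respiratory chain 1 was higher and 2 lower, a share of 7.32%, and at most 1 was lower when any array was left out. Ppargc1b, a coactivator of mitochondrial genes, rose by 0.75 ± 0.15.

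Few cell cycle genes were called. None of 34 tested S phase genes was called by limma (median change -0.10, or -0.036 without Rptor replicate 3), and 1 was higher and 4 lower at an unadjusted p under 0.05. In the G2 and mitosis list limma called 2 of 29 lower and 0 higher (median -0.06), a share of 6.90%, and 4 were lower and 0 higher at an unadjusted p under 0.05. The median was 0.045 without Rptor replicate 3 and between -0.15 and -0.033 without any other array. The number lower was 0 without WT replicate 2 or Rptor replicate 3 and 1 without Rptor replicate 2, WT replicate 1 or WT replicate 3. Kif23, a kinesin of cytokinesis, fell by 0.59 ± 0.14, a call lost without WT replicate 2 (limma adjusted p = 0.0575) or Rptor replicate 3 (0.0556). The list mean differed from the WT mean by 0.00 on Rptor replicate 1, 0.04 on Rptor replicate 2 and -0.31 on Rptor replicate 3. Myc, the growth factor-induced regulator, read 10.20, 10.08 and 10.29 on WT and 10.27, 9.98 and 10.58 on Rptor arrays, with overlap, and was not called (0.09 ± 0.14).

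Genes tied to survival and to FoxO factors changed singly. Bcl2, the survival protein, read 10.22, 10.28 and 9.96 on WT and 9.19, 8.67 and 9.14 on Rptor arrays and fell by 1.15 ± 0.14, but its change was -0.74 when its 2 probe sets were averaged. Mcl1, another survival protein, was not called (0.19 ± 0.11). Of 15 tested p53 targets 4 were higher and 1 lower, and 2 were higher without Rptor replicate 1 or WT replicate 3. Zmat3, an RNA-binding p53 target, rose by 0.52 ± 0.13. Of 18 tested FoxO factors and targets 4 were higher and 2 lower, with a median change of 0.25, or 0.091 without Rptor replicate 3. Txnip, a brake on glucose uptake, read 9.92, 10.03 and 9.94 on WT and 10.88, 11.00 and 11.09 on Rptor arrays and rose by 1.03 ± 0.12. Irs2 and Il7r are also members of that list. The number lower was 0 without Rptor replicate 1 and 1 without Rptor replicate 2 or WT replicate 3.

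**Figure D4:**
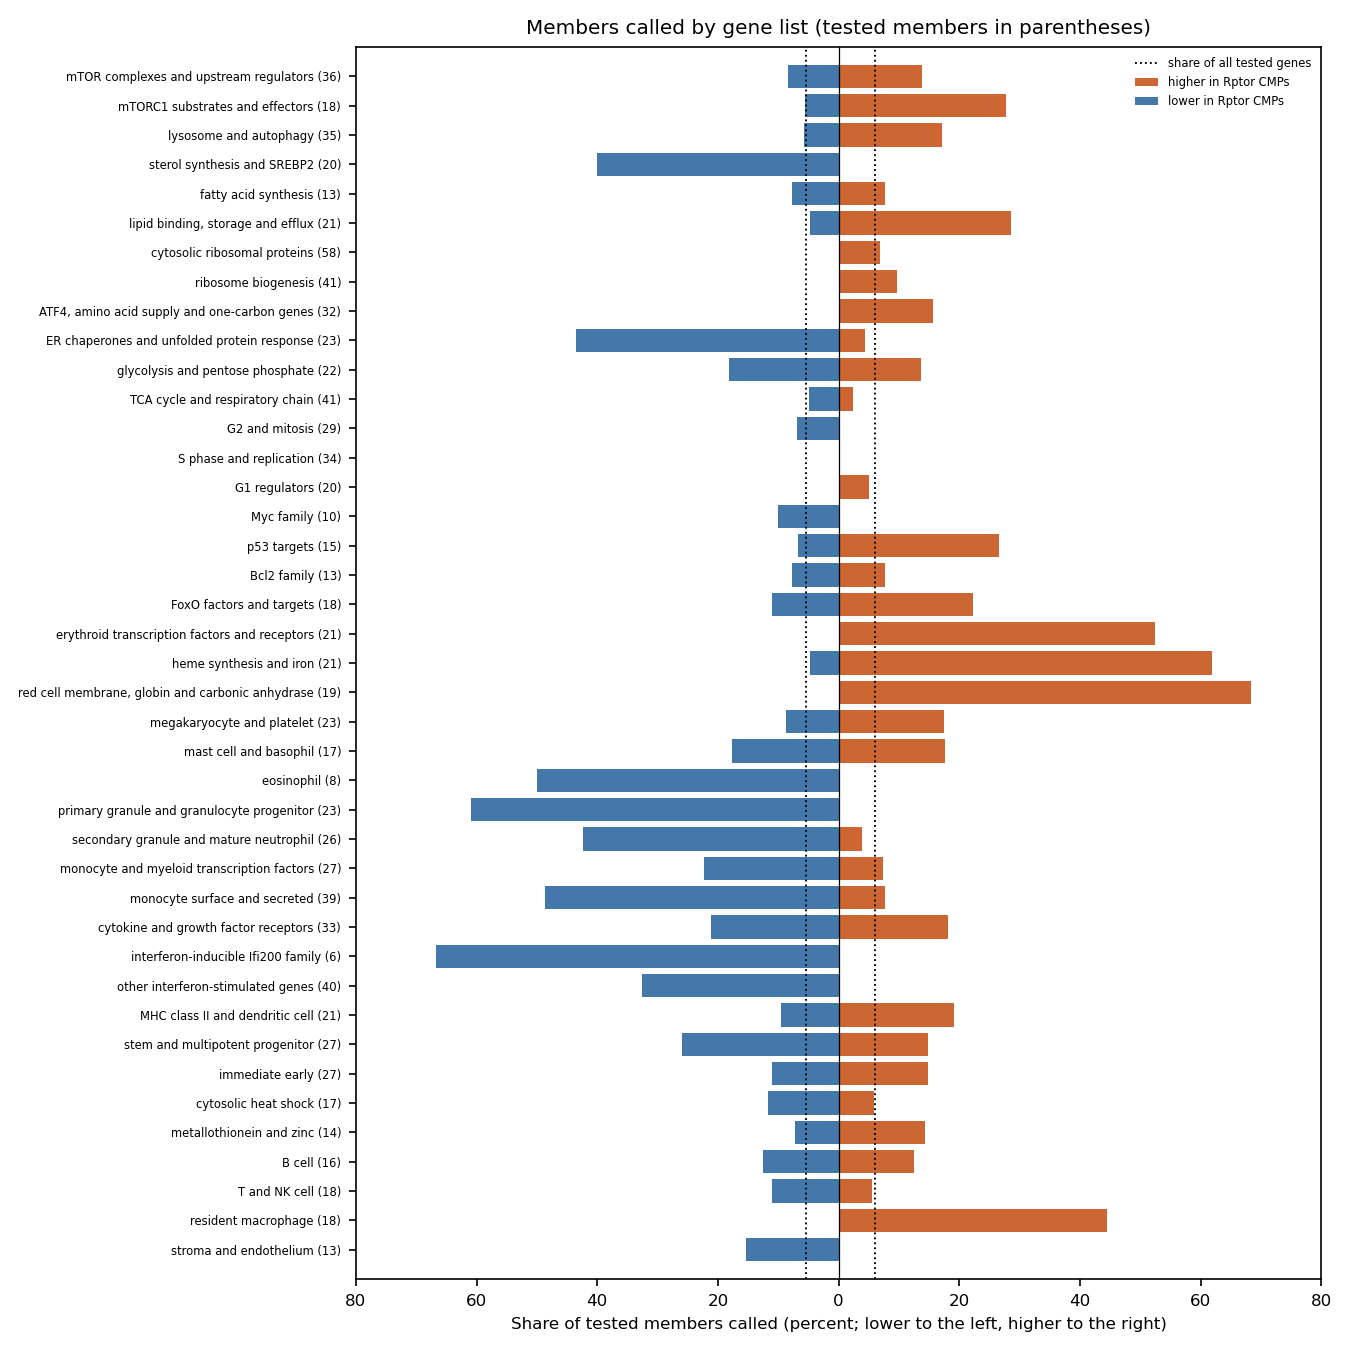
Bars give the share of a list's tested members called lower (blue, to the left) and higher (orange, to the right) in Rptor CMPs, in percent. Dotted lines mark the shares over all tested genes, 5.44% lower and 6.01% higher. The red cell membrane list has 68.4% of its members called and the heme list 66.7%, all of the first and all but 1 of the second higher.

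Metal-binding and stress genes gave some of the largest single changes, but few members of their lists were called. Of 14 tested metallothionein and zinc genes limma called 2 higher and 1 lower (0 lower when any array was left out). Their median change was 0.10, or 0.001 without Rptor replicate 2. Mt2, a metallothionein that binds zinc and copper, read 6.28, 6.07 and 6.07 on WT and 8.58, 9.28 and 8.55 on Rptor arrays and rose by 2.66 ± 0.23. Mt1 rose by 1.53 ± 0.11. Of 17 tested cytosolic heat shock genes 1 was called higher (0 without Rptor replicate 2) and 2 lower. Their median change was -0.07, or -0.0079 without Rptor replicate 3. Of these genes, Hspa1a read 4.81, 8.27 and 6.22 on WT and 4.02, 3.71 and 3.99 on Rptor arrays. Its near-identical copy Hspa1b read 5.19, 6.86 and 5.97 on WT and 4.19, 4.13 and 3.95 on Rptor arrays. WT replicate 2 was the highest array for both. Hspa1a fell by 2.52 ± 0.63 and Hspa1b fell by 1.92 ± 0.47, and both calls were lost without that array, at -1.61 (limma adjusted p = 0.0841) and -1.49 (0.0662).

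Several of the 15 largest rises belonged to none of the lists. Clca3a1, a secreted regulator of chloride channels, read 4.89, 4.95 and 4.71 on WT and 7.83, 8.41 and 7.81 on Rptor arrays and rose by 3.16 ± 0.20. Rec8, a meiotic cohesin, read 5.63, 5.77 and 5.43 on WT and 8.37, 9.04 and 8.44 on Rptor arrays and rose by 3.01 ± 0.22. Bex4 (2.62 ± 0.19), Sapcd1 (2.38 ± 0.24), Pkd1l3 (2.30 ± 0.21) and Slc25a21, a mitochondrial carrier (2.29 ± 0.22), rose as well. So did Tspo2, an erythroid membrane protein (2.37 ± 0.23), Ryk, a Wnt receptor (2.17 ± 0.16), and Cd55, which protects cells from complement (2.13 ± 0.22). Rptor replicate 2 was the highest array for each of these 9 genes. Ano1, a chloride channel, read 6.40, 7.47 and 5.43 on Rptor against 3.64 to 3.94 on WT arrays, and Rab4a, a small GTPase of endosomes, 7.19, 8.14 and 7.62 against 4.72 to 5.47. They rose by 2.61 ± 0.30 and 2.59 ± 0.33. Of the 30 genes of largest change, 14 changed by a different amount in granulocyte-macrophage progenitors by limma's interaction contrast. All tested genes passed it at 2.5%, but the contrast contains the CMP change by which the 30 were chosen, so the shares cannot be compared.

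Among the 15 largest falls, Ly6a2, of the Ly6 family, read 9.72, 9.75 and 9.84 on WT and 7.46, 7.65 and 7.17 on Rptor arrays and fell by 2.35 ± 0.13. Itga1, the integrin alpha1 chain, read 7.15, 7.29 and 7.07 on WT and 5.33, 5.27 and 4.85 on Rptor arrays and fell by 2.02 ± 0.14. Lst1, a leukocyte membrane protein, fell by 1.97 ± 0.13 and Bpifc fell by 2.00 ± 0.24. Clec12a, an inhibitory lectin of myeloid cells and a member of the granulocyte progenitor list, read 10.06, 10.24 and 10.36 on WT and 8.16, 8.22 and 8.46 on Rptor arrays and fell by 1.94 ± 0.10. Ighm, the mu heavy chain in the B cell list, fell by 2.35 ± 0.30, but its change was -0.91 when its 7 probe sets were averaged.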

How the data were processed

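RNA of sorted CMPs (1 to 5 ng) was amplified with a NuGEN whole-transcript kit and hybridized to single-channel arrays, per the labels' protocols. The authors deposited log2 values for 41345 probe sets, and RMA, Partek 6.6 and limma appear in the submitters' processing notes with no roles given. RMA equalizes arrays by quantiles, which removes any shift common to most transcripts. The platform annotation gave 23521 probe sets 1 symbol each, and the set of highest mean was kept for each of 22180 genes. Genes with a mean of at least the 25th percentile (log2 3.86) were tested, 16638 in all. A linear model with empirical Bayes moderation (limma 3.58.1, R 4.3.3) was fitted to all 20 arrays with 6 group means and 14 residual degrees of freedom. Tested on simulated data of 16638 genes, it called 33% of 100 genes changed by 0.5 and 92% of 100 changed by 1 log2 unit. No other simulated gene was changed, a smaller share than was called in the real data. The adjusted p depends on that share, so these percentages may not hold for the real comparison. Members and lists (41 lists, 922 tested genes) were chosen with earlier results of these data known. Genes named are the 15 largest called, non-overlapping changes each way, up to 6 members of smallest p per list, fixed pathway and fate genes, cell type markers, and up to 5 genes that varied most between replicates. Predicted genes and immunoglobulin segments were not named. Promoters are RefSeq sequences (GRCm38.p6) from all chromosomes except chr18, matched by symbol for 213 of 267 named genes. A share of promoters counts each sequence, and a share of genes counts a gene if any of its promoters held the motif. Alternatives covered the filter, probe set choice, arrays fitted, a block for replicate number, weighting of arrays, eBayes options, normalization, a 1.5-fold minimum and each array left out. Figures were drawn with matplotlib 3.10.9.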

Additional observations from a re-analysis of the deposited data

Results flagged for a closer look

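Of the 30 genes of largest change in CMPs, 14 changed by a different amount in granulocyte-macrophage progenitors (GMPs), the more committed population, by limma's interaction contrast with Benjamini-Hochberg adjustment over all genes (2.5% of the 16638 genes passed it). These genes were chosen for a large change in the CMP arrays, which the difference contains, so a smaller change in GMPs is favoured by the choice and the shares cannot be compared. The change was smaller in GMPs for 13 of the 14, and 11 of the 15 largest rises were among them. The GMP change minus the CMP change was -2.33 for Rec8, -2.31 for Ano1, -2.22 for Pkd1l3, -2.01 for Slc25a21 and -1.94 for Clca3a1. It was -1.87 for Bex4, -1.80 for Rab4a, -1.70 for Tspo2, -1.60 for Sapcd1, -1.38 for Ryk and -1.24 for Cd55. Of the falls, Clec12a differed by 1.14 and Hk3 by 0.72, a smaller fall in GMPs, and Itga1 by -1.10, a larger one.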

How the results depend on the processing

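With array weights limma called 1503 genes higher and 1545 lower, and Rptor was called lower (-0.36, limma adjusted p = 0.0123, against 0.11 to 0.429 under the other alternatives), and the cause was not tested. With a 1.5-fold minimum, which removes small changes, 590 were higher and 545 lower. With 1 array left out, which leaves 2 arrays of that genotype, 595 to 909 were higher and 614 to 858 lower. The other alternatives kept both counts within 1.5 times the reported 1000 and 905. CMP arrays alone gave 1109 and 1004, CMP and granulocyte-macrophage progenitor arrays together 1330 and 1156, and median centring 1070 and 754. Centring on the tested genes' median, an alternative chosen after seeing the data, gave 905 and 1011. The median of all changes lay between -0.03 and 0.02 under these scalings. Calls within the gene lists numbered 187 to 360 against 257, and the genes that differed from granulocyte-macrophage progenitors 10 to 20 against 14. A fit of the CMP arrays with the replicate number as a block called 999 higher and 924 lower, 1636 of the 1923 shared with the reported calls. Same-numbered WT and Rptor CMP arrays did not each correlate best with one another, so the numbers were not taken as pairing the genotypes. With group means removed, Rptor CMP and Rptor GMP arrays matched best at the same number (0.185, 0.0479 and 0.171), but WT arrays did so mutually only for replicate 3 (0.0872). Pairing of CMP with GMP arrays was not modelled in the interaction contrast. Of 140 called genes named here (Klrb1c not counted), 133 kept their call under every alternative run for single genes, and 0 reversed. Most were named for a large change or a small p, which favours a kept call. Of all 1905 calls, 1195 (without Rptor replicate 2) to 1567 (without Rptor replicate 3) were also called with 1 array left out. Uncalled Tfeb was 0.0425 with array weights, 0.0151 after repeated quantile normalization, 0.0109 after median centring, 0.0092 after cyclic loess and -0.10 to 0.05 with an array left out. Myc ranged from -0.0634 to 0.23 and Ppbp from -0.89 to 0.13 with an array left out, and the causes were not tested. Precision is limited by 3 arrays per genotype.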

Other observations

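Immediate early genes, which respond within minutes to signals and to handling, were divided, 4 of 27 being called higher and 3 lower by limma, with a median change of -0.07 (0.02 without Rptor replicate 2, -0.025 without WT replicate 3). Junb, an AP-1 subunit, read 7.78, 7.73 and 7.79 on WT and 8.25, 8.10 and 8.69 on Rptor arrays and rose by 0.58 ± 0.12. Ppp1r15a (GADD34), which reverses the translation block of the stress response, rose by 0.70 ± 0.16. Rgs2, a brake on G protein signals, read 8.89, 8.90 and 8.97 on WT and 7.91, 7.82 and 8.22 on Rptor arrays and fell by 0.93 ± 0.13. The number lower was 1 without Rptor replicate 2.

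A few genes varied between arrays of 1 genotype. Tph1, which makes serotonin, read 6.46 on Rptor replicate 2 and between 4.20 and 4.53 on the other 5 arrays. Ppbp, a platelet chemokine, read 6.62 on WT replicate 3 and 4.46 to 4.94 on the others. Neither was called between the genotypes (limma adjusted p = 0.179 and 0.461). In the B cell list Blnk, an adaptor of B cell receptor signals, read 5.30, 5.14 and 5.17 on WT and 6.37, 6.74 and 6.18 on Rptor arrays and rose by 1.22 ± 0.21, while Cd79b fell by 0.76 ± 0.12.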
